A study of Mus musculus with 4 samples.

Results

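The 8 genes described here encode transcription factors of the kidney tubule and were followed through single nuclei of mouse kidney. They are the 8 symbols Hnf4a, Pax2, Pax8, Tfap2b, Gata3, Esrrg, Tfcp2l1 and Emx1, which are 8 of the 27998 genes listed in each of 4 count matrices, and all 8 were found once in every matrix. Each was read by nephron segment, with nuclei grouped by the transporters and other canonical markers that they carried, and by treatment.

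Kidneys of C57BL/6 mice at post natal week 22 were either treated with losartan, an antagonist of the type 1 receptor for angiotensin II, or left untreated, with 2 libraries in each group. Nuclei were released from flash-frozen tissue with an isolation kit and captured on a 10x Chromium Chip G. Dose, route and duration of losartan and the sex of the mice are not known here. The labels describe the replicates as separate libraries without naming separate animals, so the p-values measure the spread between these libraries, which may be technical.

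Nephron segments keep their identity through sets of transcription factors that act together. Hnf4a, a nuclear receptor, is needed in mice for the proximal tubule to mature, while the paired-box factors Pax2 and Pax8 act in the nephric duct and nephron lineage and, in the adult mouse inner medulla, maintain urea transporters and aquaporins. Tfap2b is required for the distal convoluted tubule of mice, Gata3 for the nephric duct, and Tfcp2l1 for the patterning of the collecting duct epithelium. Esrrg is an orphan nuclear receptor of mitochondrial energy genes, and Emx1 is a homeobox factor best known from the developing forebrain.

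Promoter windows of RefSeq (GRCm38.p6; from 250 bases before to 50 bases after an annotated start) were found for all 8 genes, 14 windows in total. The 2 windows of Hnf4a are shown because the gene is the proximal tubule factor of the set and has alternative starts, the ones of Pax2 and Pax8 because these genes lead the losartan comparison, and that of Emx1 because it was high in few segments. Capitals mark the HNF1 core GTTAAT on either strand in the Hnf4a windows and the GC box GGGCGG on either strand in the others.
Hnf4a, upstream start, chr2:163506607-163506906, + strand: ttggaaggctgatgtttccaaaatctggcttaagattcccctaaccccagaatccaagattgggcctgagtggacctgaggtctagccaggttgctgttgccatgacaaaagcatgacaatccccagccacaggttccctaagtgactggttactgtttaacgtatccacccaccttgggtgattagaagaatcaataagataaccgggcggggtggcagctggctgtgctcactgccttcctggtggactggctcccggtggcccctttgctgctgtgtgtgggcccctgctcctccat
Hnf4a, downstream start, chr2:163546905-163547204, + strand: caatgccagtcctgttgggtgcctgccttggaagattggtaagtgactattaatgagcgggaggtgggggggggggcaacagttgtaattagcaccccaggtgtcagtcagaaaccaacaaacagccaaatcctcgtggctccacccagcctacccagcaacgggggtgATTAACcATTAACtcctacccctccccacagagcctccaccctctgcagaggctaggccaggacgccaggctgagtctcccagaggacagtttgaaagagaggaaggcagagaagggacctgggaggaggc
Pax2, chr19:44756656-44756955, + strand: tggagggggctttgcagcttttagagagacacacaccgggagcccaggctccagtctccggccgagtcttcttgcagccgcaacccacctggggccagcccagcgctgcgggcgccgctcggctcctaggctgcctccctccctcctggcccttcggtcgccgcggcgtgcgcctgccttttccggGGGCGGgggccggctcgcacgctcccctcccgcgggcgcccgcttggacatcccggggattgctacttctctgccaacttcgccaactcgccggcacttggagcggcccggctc
Pax8, chr2:24475550-24475849, - strand: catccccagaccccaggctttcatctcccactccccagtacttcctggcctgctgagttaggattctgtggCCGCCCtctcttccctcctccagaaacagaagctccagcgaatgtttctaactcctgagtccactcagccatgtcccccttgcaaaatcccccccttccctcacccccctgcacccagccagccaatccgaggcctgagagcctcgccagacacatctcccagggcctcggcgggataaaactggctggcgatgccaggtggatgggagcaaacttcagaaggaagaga
Emx1, chr6:85187681-85187980, + strand: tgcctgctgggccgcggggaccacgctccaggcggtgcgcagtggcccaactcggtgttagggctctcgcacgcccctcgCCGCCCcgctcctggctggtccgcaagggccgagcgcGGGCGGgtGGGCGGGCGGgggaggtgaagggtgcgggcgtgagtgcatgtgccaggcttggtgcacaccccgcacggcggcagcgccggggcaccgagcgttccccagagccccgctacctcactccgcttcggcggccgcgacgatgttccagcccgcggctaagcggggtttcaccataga

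The downstream Hnf4a window held 2 HNF1 cores next to each other and the upstream window held 0. The core was present in 7.10% of all 32851 windows and in 3 of the 14 member windows, one each of Hnf4a, Tfap2b and Esrrg. The upstream Hnf4a window also held the GC box once and the GATA letters AGATAA once, while the Pax2 and Pax8 windows printed held 1 GC box each and the Emx1 window 4, of which 2 overlap. The Pax2 windows not printed held 0 GC boxes (chr19:44746351-44746650) and 1 (chr19:44755502-44755801). The GC box occurred in 35.7% of all windows and in 8 of 14 member windows. The AP-2 letters GCCNNNGGC, the motif of the family of Tfap2b, were in 16.6% of all windows and in 5 of the member windows, those of Emx1, Esrrg, Gata3, Pax2 and Tfcp2l1. The letters AAGGTCA, a core bound by Esrrg and its relatives, were in 4.72% of all windows and in 0 of the 14. These matches describe letters in a window and not bound sites.

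On GRCm38 (GENCODE M21), Hnf4a (ENSMUSG00000017950) lies on chromosome 2 from 163506808 to 163572910 on the + strand, Pax8 (ENSMUSG00000026976) on chromosome 2 from 24420560 to 24475599 on the - strand and Gata3 (ENSMUSG00000015619) on chromosome 2 from 9857078 to 9890034 on the - strand. Pax2 (ENSMUSG00000004231) lies on chromosome 19 from 44756045 to 44837871 on the + strand and Emx1 (ENSMUSG00000033726) on chromosome 6 from 85187438 to 85204462 on the + strand. Chromosome 1 holds Tfap2b (ENSMUSG00000025927, 19208914 to 19238576), Esrrg (ENSMUSG00000026610, 187608791 to 188214885) and Tfcp2l1 (ENSMUSG00000026380, 118627945 to 118685168), all on the + strand. Counted genes overlap 4 members: the antisense gene Hnf4aos overlaps Hnf4a with 80748 unique molecular identifiers (UMIs, one per captured transcript), Gm36388 overlaps Esrrg with 11498, Gm20395 and 1700039E22Rik overlap Pax2 with 1164 and 408, and 9230102O04Rik lies on the same strand within Gata3 with 455. On the opposite strand, Gm13256 and 4930412O13Rik overlap Gata3 with 191 and 160 UMIs, and 9330162B11Rik overlaps Esrrg with 87. Whether counting used the strand is unknown, and reads of a member and of its partners may be mixed for these 4 members.

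The 4 matrices held 39654 barcodes and 42290414 to 59078762 UMIs per library, of which 9043 and 9386 nuclei were kept in the losartan libraries and 8459 and 9043 in the untreated libraries. Clustering was run without the 8 members and 38 other listed transcription factors, and 30 of 46 clusters, with 31670 nuclei, could be named from their markers. They gave 16 nephron classes, named for what their nuclei resemble. Of 85 pairs of a nephron class and one of its markers, 55 had the marker's highest level in that class and 15 its second highest. For instance, the mean level of the sodium-glucose cotransporter Slc5a2 was 964 CPM (a gene's UMIs scaled to one fixed total for every class and library) in proximal tubule S1, that of Slc7a13 was 2388 CPM in S3, that of the aquaporin Aqp2 was 1022 CPM in principal cells with much Slc14a2 and 952 CPM in those with little, and the organic anion transporter Slc22a8 had 276 CPM in S2 and 231 CPM in S1. The S3 marker Slc5a1 was low in S3, at 32.1 CPM, and highest in thick ascending limb Casr-high. Thin limb and principal cell nuclei were each divided by the urea transporter Slc14a2, and thick ascending limb nuclei by the calcium-sensing receptor Casr. Libraries shared 21 to 29 barcodes per pair. Coverage of 2 nephron classes was uneven: untreated library 1 gave 4 nuclei of thin limb Slc14a2-low and 9 of principal cell Slc14a2-high, too few for a level, and 1 S2 cluster and 1 S3 cluster drew over 90% of their nuclei from losartan library 1. Class contents also differed within thin limb Slc14a2-high, where Slc14a2 was at 344 and 444 CPM in the losartan libraries and at 1444 and 472 CPM in the untreated libraries. Clusters were built from genes that vary with the members, so levels across classes are a description without a test.

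Hnf4a was a gene of the proximal tubule. Its level in S2 was 587 and 537 CPM in losartan libraries 1 and 2, against 493 and 467 CPM in untreated libraries 1 and 2, the order of libraries used throughout. In S3 it was 517 and 476 CPM with losartan and 561 and 429 CPM without, and in S1 it was 496 and 475 CPM with losartan and 432 and 463 CPM without. These 3 segments could not be ordered, because the libraries of each overlapped those of the next. The nuclei of injured proximal tubule, a class defined by Havcr1, Vcam1 and other injury genes, held 266 and 281 CPM with losartan against 236 and 214 CPM untreated, below every S1 library. Parietal epithelium followed at 71.5 ± 32.0 CPM (SD, n = 4 libraries of both groups), and in the other 11 nephron classes the mean was 19.4 to 40.1 CPM. Endothelium, fibroblasts and macrophages, which should lack the gene, had 26.1 to 34.4 CPM. The antisense gene Hnf4aos had 1251 CPM in S2, 1014 CPM in S3 and 819.5 CPM in S1, with overlapping libraries, and 243 CPM in injured nuclei.

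Pax2 and Pax8 were highest at the medullary end of the nephron. Pax2 stood at 1567 and 1421 CPM in thin limb Slc14a2-low nuclei of the losartan libraries, against 2069.7 CPM in untreated library 2. In thin limb Slc14a2-high it had 1526 and 1356 CPM with losartan and 1202 and 1686 CPM untreated, and in principal cell Slc14a2-high 1484 and 1207 CPM with losartan and 1571 CPM in untreated library 2. These 3 classes overlapped, and principal cell Slc14a2-low came below them with 795 and 761 CPM in losartan libraries and 1128 and 993 CPM in untreated libraries. Along the remaining nephron Pax2 ran without a gap between neighbouring classes, from 487 CPM in thick ascending limb Casr-low to 121 CPM in S2, and then dropped to 12.9 CPM in podocytes. Podocytes were thus below the 22.7 to 48.8 CPM of endothelium, fibroblasts and macrophages.

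Pax8 shared much of this order. Its highest level was in thin limb Slc14a2-high, with 996 and 1115 CPM in the losartan libraries and 1765 and 1259 CPM in the untreated libraries, followed by thin limb Slc14a2-low at 1092 CPM and principal cell Slc14a2-high at 1008 CPM. Parietal epithelium of Bowman's capsule had 541 and 792 CPM with losartan against 855 and 1036 CPM untreated, and injured proximal tubule 491 and 616 CPM against 659 and 692 CPM. The 3 uninjured proximal segments lay at 291 CPM in S1, 404 CPM in S2 and 593 CPM in S3. The lowest tubule class was the distal convoluted tubule at 105 ± 11.3 CPM (SD, n = 4), and podocytes, at 50.6 CPM, were within the 37.8 to 52.5 CPM of the 3 classes outside the nephron. Over the 16 classes the mean levels of Pax2 and Pax8 had a Pearson correlation of 0.83 on the log2 scale, the highest of the 28 pairs of members, from classes that share libraries and depth. In nuclei thinned to 2000 UMIs, 566 of 751 thin limb Slc14a2-high nuclei carried both transcripts, beside 566.8 expected from the single shares if the genes were independent, 95 carried Pax2 alone and 78 Pax8 alone.

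**Figure D1:**
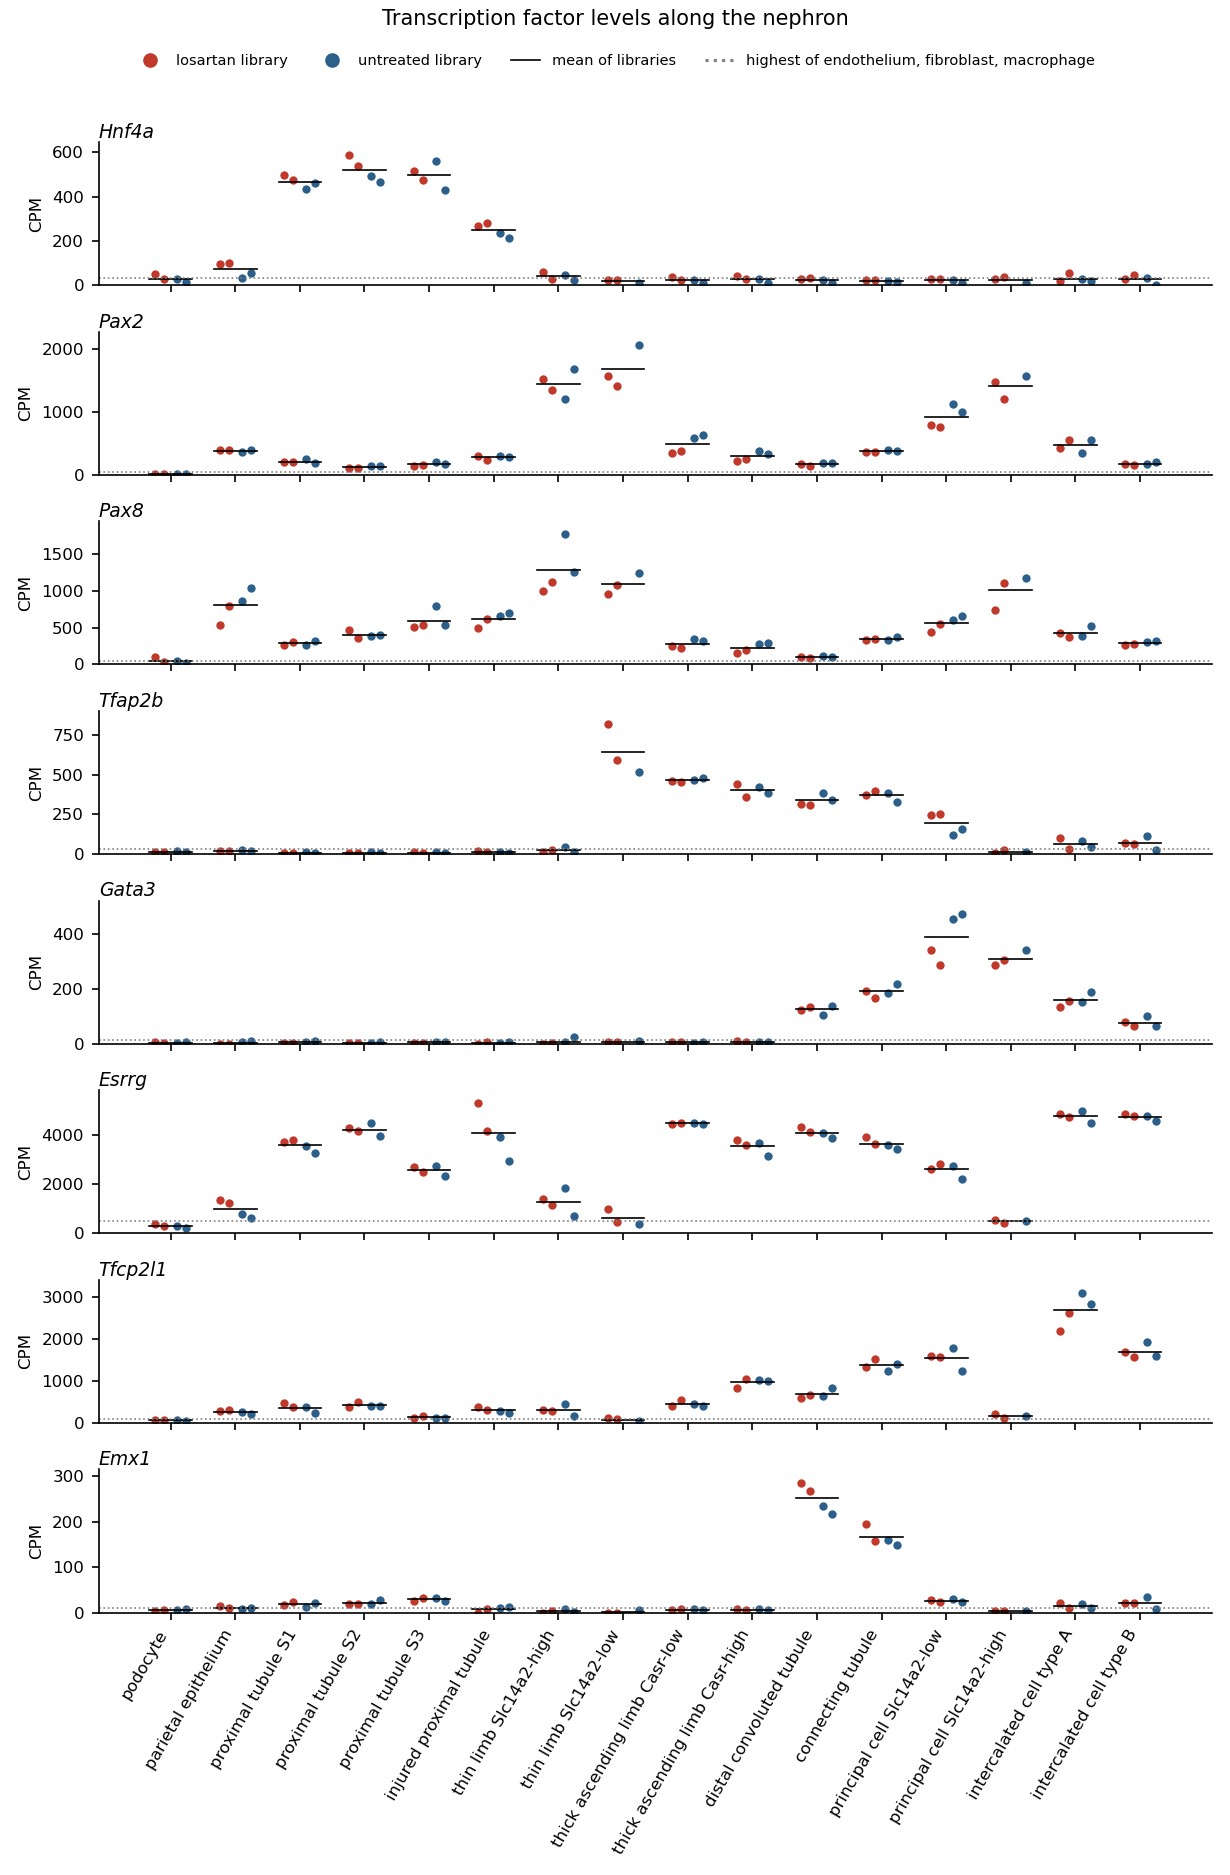
Level of each of the 8 genes (y axis, CPM, linear from 0) in 16 nephron classes (x axis), with 1 point per losartan library (red) or untreated library (blue), the mean of libraries as a bar and the highest of 3 classes outside the nephron as a dotted line. Hnf4a is high in the proximal tubule, Pax2 and Pax8 in both thin limb classes and principal cell Slc14a2-high, and Gata3 in the collecting system. Emx1 reaches 251 CPM in distal convoluted tubule and 165 CPM in connecting tubule with 29.5 CPM or less in the other nephron classes.

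Tfap2b marked the distal nephron from the loop to the connecting tubule. It was highest in thin limb Slc14a2-low, with 818 and 593 CPM in the losartan libraries and 514 CPM in untreated library 2. Thick ascending limb Casr-low had 459.7 and 454 CPM with losartan and 466 and 476 CPM untreated, Casr-high averaged 401 CPM, connecting tubule 371 CPM and distal convoluted tubule 337 CPM. The step down to principal cell Slc14a2-low, at 245 and 254 CPM with losartan and 119 and 157 CPM untreated, had no overlap with the distal convoluted tubule libraries. Both thin limb classes carry the name of the same segment, yet thin limb Slc14a2-high had 24.4 CPM, inside the 10.6 to 34.2 CPM of endothelium, fibroblasts and macrophages. Principal cell Slc14a2-high, at 14.6 CPM, and the 3 uninjured proximal segments, at 8.25 to 9.11 CPM, were also at that level.

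Gata3 was found in the collecting system. In principal cell Slc14a2-low it had 343 and 286 CPM with losartan and 454 and 474 CPM untreated, and in principal cell Slc14a2-high 286 and 306 CPM with losartan and 340.1 CPM in untreated library 2. Connecting tubule followed at 192 and 165 CPM with losartan and 186 and 219 CPM untreated, with no library reaching those of principal cell Slc14a2-high. Intercalated cell type A had 158 CPM, distal convoluted tubule 125 CPM and intercalated cell type B 77.4 CPM. All proximal, loop and glomerular classes were at 3.39 to 7.97 CPM, near the 6.15 to 12.3 CPM of endothelium, fibroblasts and macrophages. Outside the nephron, urothelium carried 482 ± 53.1 CPM (SD, n = 4), overlapping principal cell Slc14a2-low.

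Esrrg was high in most tubule classes. Intercalated cell type A had 4877 and 4739 CPM in losartan libraries and 4997 and 4499 CPM in untreated libraries, overlapping type B at a mean of 4755 CPM. Thick ascending limb Casr-low averaged 4478 ± 27.3 CPM (SD, n = 4), S2 4229 CPM, distal convoluted tubule 4104 CPM, connecting tubule 3648 CPM and S1 3588 CPM. Thick ascending limb Casr-high had 3563 CPM, and a step without overlap led down to principal cell Slc14a2-low at 2606 ± 266 CPM and S3 at 2572 ± 185 CPM. Lower still were 3 tubule classes: thin limb Slc14a2-high had 1279 ± 483 CPM, thin limb Slc14a2-low 613 ± 339 CPM over 3 libraries, and principal cell Slc14a2-high 492 ± 53.2 CPM over 3 libraries. The last of these was within the 304 to 498 CPM of endothelium, fibroblasts and macrophages, and podocytes were at 293 CPM. Other classes outside the nephron had more Esrrg. Means were 1958 CPM in T and NK cells, 1723 CPM in adipocytes, 1016.5 CPM in mural, mesangial and renin cells and 922 CPM in B cells. Both thin limb classes were thus also within the range of classes outside the nephron.

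Tfcp2l1 was graded toward the intercalated cells. Type A had 2195 and 2632 CPM with losartan and 3103 and 2849 CPM untreated, above every library of type B, which averaged 1694 CPM. Principal cell Slc14a2-low at 1553 CPM and connecting tubule at 1371 CPM overlapped each other, and below them thick ascending limb Casr-high at 981 CPM, distal convoluted tubule at 683 CPM and thick ascending limb Casr-low at 447 CPM were separated without overlap. The Slc14a2-high principal cells again stood apart from their Slc14a2-low counterparts, with 206 and 113 CPM in the losartan libraries and 172 CPM in untreated library 2. S3 had 132 ± 18.5 CPM, against 421 CPM in S2 and 369 CPM in S1.

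Among nephron classes, Emx1 was high in 2 adjoining segments. Distal convoluted tubule had 286 and 268 CPM with losartan and 233 and 217 CPM untreated, and connecting tubule had 194 and 156 CPM with losartan and 159.8 and 149.6 CPM untreated. Every distal convoluted tubule library exceeded every connecting tubule library, and every connecting tubule library exceeded those of S3, the next class, at 29.5 CPM. The other 13 classes had 1.59 to 26.1 CPM, against 3.43 to 10.3 CPM in the 3 classes outside the nephron.

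Shares of nuclei with a UMI gave the same leading classes for 7 of the 8 genes when all nuclei were thinned to 2000 UMIs; for Esrrg the order of intercalated type B and type A was exchanged. Thinning left out 0 of 18429 losartan nuclei and 617 of 17502 untreated nuclei that were shallower. Hnf4a was detected in 63.4% of S2 nuclei (60.2 to 67.7% over libraries; 86.0% before thinning) and in 6.56% of endothelial nuclei (8.91% before thinning). Pax2 was detected in 90.1% of thin limb Slc14a2-low nuclei and 7.32% of endothelial nuclei, Pax8 in 85.0% of thin limb Slc14a2-high and 9.35% of endothelial nuclei, and Gata3 in 52.3% of principal cell Slc14a2-low and 1.65% of endothelial nuclei. For Emx1 the shares were 37.2% of distal convoluted tubule, 25.8% of connecting tubule and 1.51% of endothelial nuclei. Esrrg had a UMI in 50.9% of endothelial nuclei, close to the 51.0% of principal cell Slc14a2-high, whose share was read as background. Median depths per library before thinning were 2479 to 2876 UMIs in endothelium and 3735 to 5560 UMIs in S2.

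**Figure D2:**
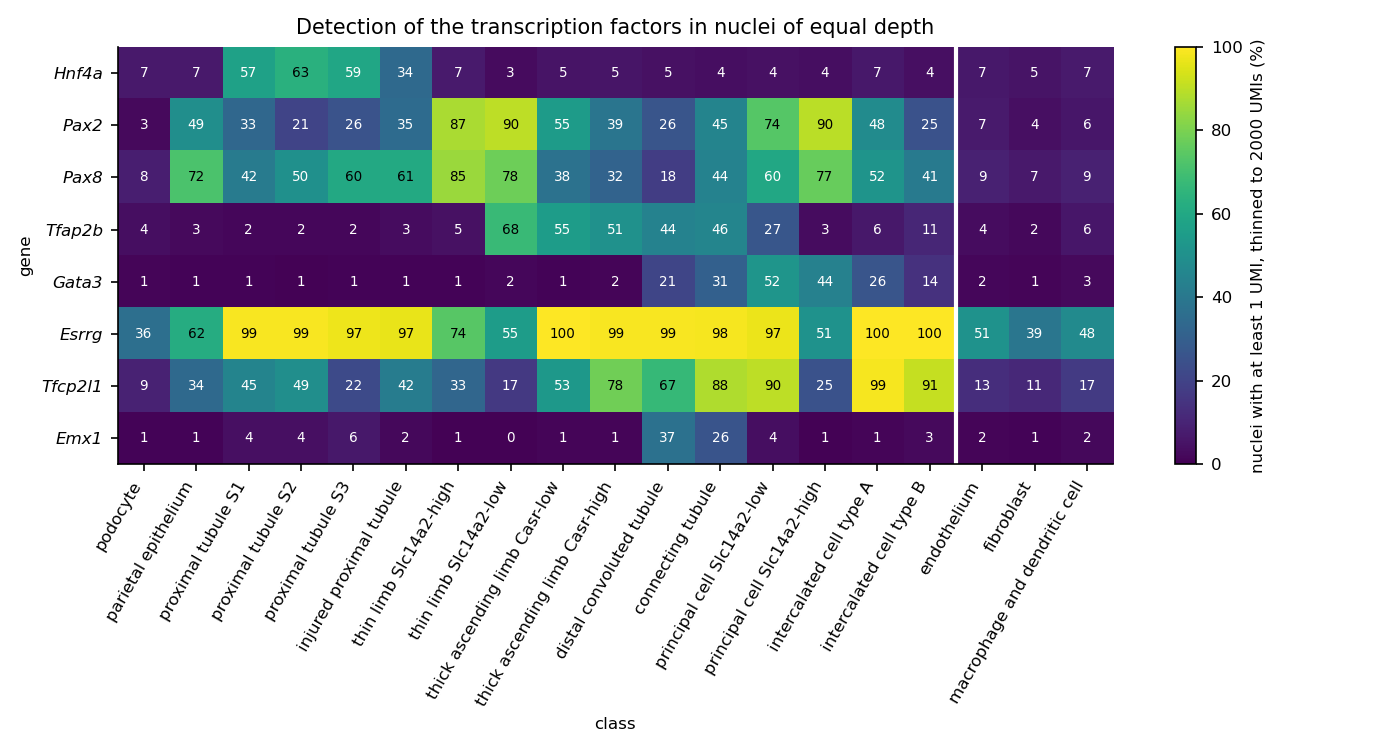
Share of nuclei with at least 1 UMI of each gene (rows) by class (columns), in percent as colour and digits, mean over libraries after thinning each nucleus to 2000 UMIs; the 3 classes right of the white line lie outside the nephron. Esrrg reaches nearly all nuclei of most tubule classes but also 50.9% of endothelial nuclei, while Emx1 reaches 37.2% of distal convoluted tubule nuclei and 1.51% of endothelial nuclei.

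The genes with the most similar pattern to each member were taken from 10549 genes with at least 20 CPM in a nephron class, by Pearson correlation of log2(CPM + 5) over 62 class and library points. For Hnf4a they were Cyp2j5, an arachidonate epoxygenase (0.985), Pdzk1, a scaffold of apical transporters (0.983), and Xylb, a xylulose kinase. For Pax2 and Pax8 the list included Setbp1 both times (0.889 and 0.825), with Gm20395, Dtnb, Stxbp6 and Veph1. Tfap2b was nearest to Tesc, Pak6 and Gm13075 (0.868 to 0.877), and Gata3 to Gm26688, the AP-2 factor Tfap2a (both 0.965) and 9230102O04Rik. Esrrg was nearest to Gm36388, Tmem116 and Chchd3 (0.903 to 0.910), Tfcp2l1 to the junction scaffold Magi1, Mboat1 and Wdr72 (0.86 each), and Emx1 to the LIM homeobox factor Lhx1 (0.818), the urate transporter Slc2a9 (0.802) and the calcium-binding protein Calb1 (0.798). Gm20395, Gm36388 and 9230102O04Rik overlap their member in the genome, and the points share libraries and depth.

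Other transcription factors of the nephron gave a frame for these levels. Of the 38 listed, Wt1 (1601 CPM), Lmx1b (508 CPM) and Tcf21 (152 CPM) were highest in podocytes, where Pax2, Pax8, Gata3 and Emx1 were at background. Lhx1 was highest in distal convoluted tubule at 449.9 CPM, with 72.1 CPM in connecting tubule, a steeper step than that of Emx1. Dmrt2 was highest in intercalated cell type A at 248 CPM and Hmx2 in type B at 294 CPM, while Elf5 was highest in principal cell Slc14a2-high at 247 CPM. The nephron progenitor factor Six2 was listed at 0 in all nephron classes.

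Losartan was then compared with untreated in the 13 classes whose nuclei numbered at least 50 in each library, by edgeR's quasi-likelihood test on counts summed per library, with p-values adjusted over all genes of a class. A call means an adjusted p under 0.05. None of the 94 tests of members gave a call: 19 had an unadjusted p under 0.05, DESeq2 called 1, and in 40 the libraries of the groups did not overlap. The share of all genes without overlap was not counted, so the 40 cannot be set against a background. Over all genes, 397 of 124468 tests were called (182 higher, 215 lower with losartan; 837 by DESeq2), and 11014 had an unadjusted p under 0.05. The share of all genes called was 1.27% in thick ascending limb Casr-high, 1.08% in connecting tubule, 0.424% in parietal epithelium, 0.405% in distal convoluted tubule, 0.266% in podocytes, 0.192% in thick ascending limb Casr-low and 0.131% in principal cell Slc14a2-low. It was 0.0981% in S2, 0.0542% in intercalated cell type B, 0.0415% in S3, 0.0137% in intercalated cell type A, 0% in S1 and 0% in thin limb Slc14a2-high. At such shares 0 of 4 to 8 members called per class is near the background.

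**Figure D3:**
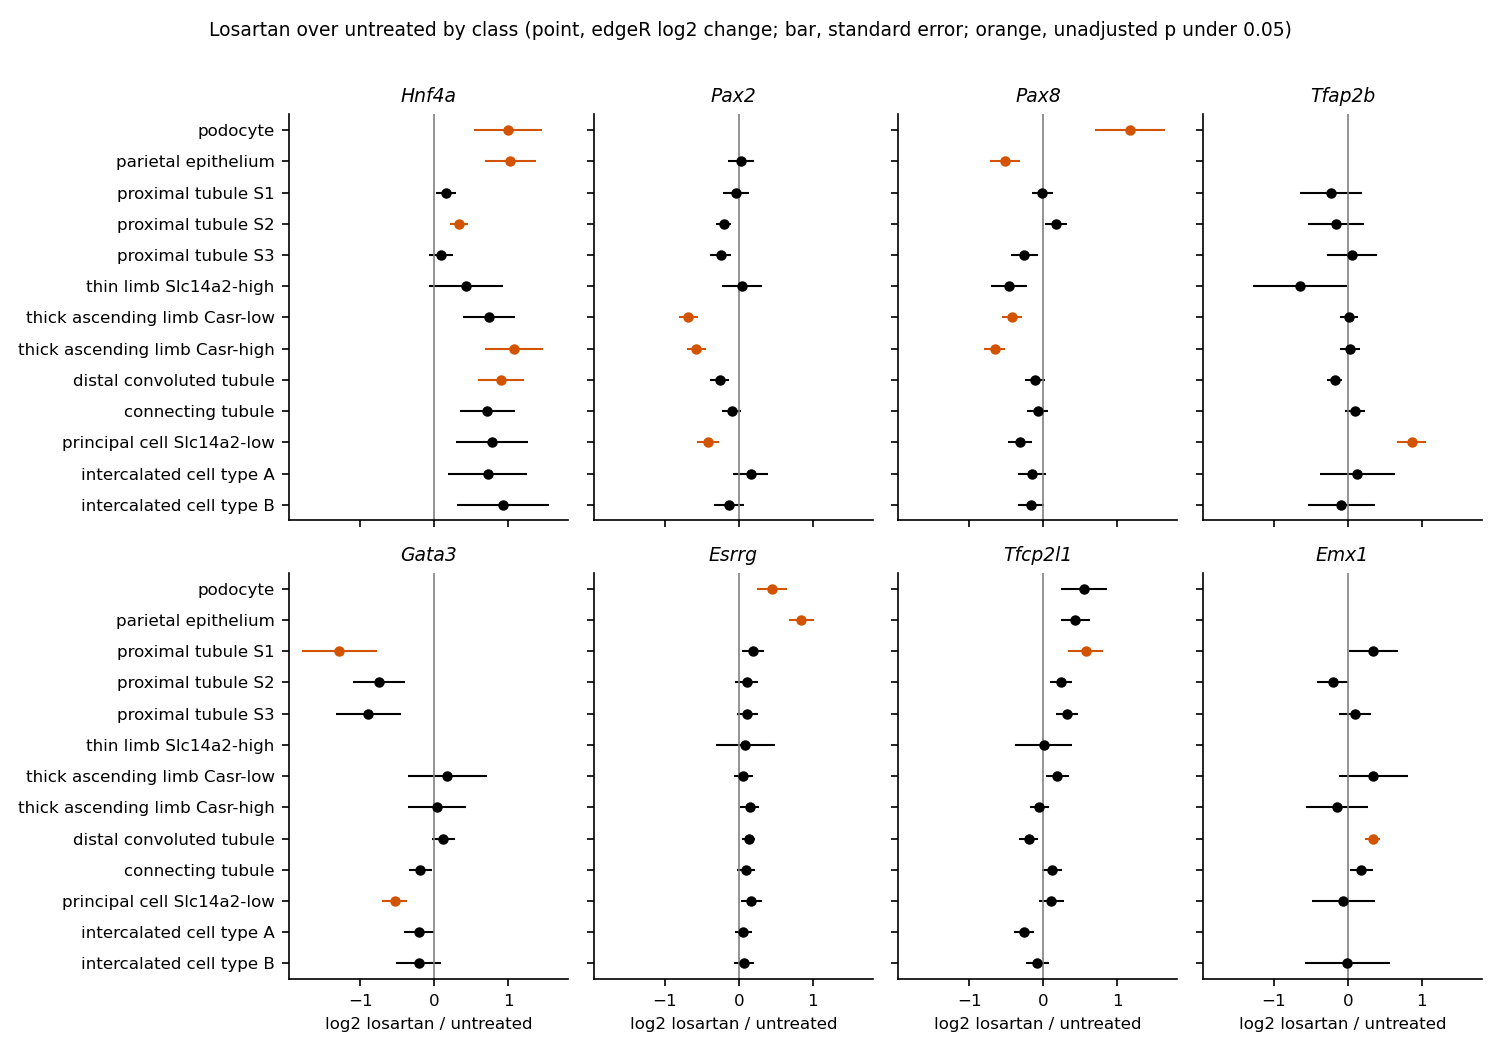
The log2 change of each gene, losartan over untreated (x axis, points, edgeR), with its standard error (bars) in the nephron classes where it was tested (y axis); orange marks an unadjusted p under 0.05, and no adjusted p was under 0.05. Pax2 and Pax8 lie left of 0 in both thick ascending limb classes, Tfap2b lies at 0.86 in principal cell Slc14a2-low, and Hnf4a lies right of 0 in all 13 classes.

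In the thick ascending limb, which reabsorbs salt without water, Pax2 and Pax8 were lower in both losartan libraries than in both untreated libraries, in both classes. In Casr-low, Pax2 had 345 and 384 CPM with losartan against 586 and 633 CPM untreated, a log2 change of -0.68 ± 0.13 (SE) with an edgeR adjusted p of 0.0898. In Casr-high it had 214 and 252 CPM with losartan against 376 and 336 CPM untreated (log2 -0.57 ± 0.13, edgeR adjusted p = 0.0689). The groups did not overlap in either class, and the difference missed the threshold in both.

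Pax8 in Casr-high had 151 and 198 CPM with losartan against 274 and 290.4 CPM untreated (log2 -0.66 ± 0.15, edgeR adjusted p = 0.0659). In Casr-low it had 247 and 224 CPM with losartan against 343 and 313 CPM untreated, a log2 change of -0.42 ± 0.13 with an edgeR adjusted p of 0.42. Again the groups did not overlap. All 3 of the differences nearest the threshold were called without the filter on low counts, at edgeR adjusted p = 0.000309 for Pax2 in Casr-low, 0.00283 for Pax2 in Casr-high and 0.000551 for Pax8 in Casr-high. The calls also depended on the library left out: Pax2 in Casr-low was called without untreated library 1 (edgeR adjusted p = 0.000493) or 2 (0.0159), in Casr-high without untreated library 1 (0.0273) or 2 (0.00187), and Pax8 in Casr-high without losartan library 2 (0.0238) or untreated library 1 (0.000406) or 2 (0.00818), while over all alternatives the adjusted p ran up to 0.998, 0.469 and 0.449 in that order. Of the class's own markers, the cotransporter Slc12a1 had log2 changes of 0.20 in Casr-low and 0.26 in Casr-high, and uromodulin (Umod) 0.00 and 0.43. In the same order Cldn16 had 0.24 and 0.08, Ppp1r1a 0.02 and 0.31, Kcnj1 -0.05 and 0.08, and Cldn10 -0.23 and -0.04. None of these markers was called, and they did not share a single direction.

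Markers of other classes differed in the same nuclei. All 4 distal convoluted tubule markers had UMIs and summed to 2960 and 3042 CPM with losartan against 2029 and 2098 CPM untreated in Casr-low, and to 3056 and 2705 CPM against 1941 and 1995 CPM in Casr-high. The 5 markers of injured proximal tubule summed to 14.2 and 29.98 CPM with losartan against 114 and 121 CPM untreated in Casr-low, with 3 to 5 of them detected per library and Krt20 at 0 in 3 libraries. Havcr1 and Vcam1 had means of only 1.25 and 7.80 CPM there. Among nephron classes Dcdc2a was highest in parietal epithelium and Lcn2 in principal cell Slc14a2-high, so this sum is not specific to injured proximal tubule. The 14 markers of proximal tubule segments summed to 1528 and 1356 CPM with losartan against 1047 and 491 CPM untreated in Casr-low. The part of these markers in the Pax2 and Pax8 differences was not tested.

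Outside the thick ascending limb the log2 change was below 0 for Pax2 in 7 of 10 classes and for Pax8 in 9 of 11, by edgeR as by DESeq2, and none was called. Each gene had 5 of these classes in which the groups did not overlap, and in all 5 the losartan libraries were the lower ones. The classes share libraries and are not separate evidence, and these counts were not made for all genes. Pax2 in principal cell Slc14a2-low was at 795 and 761 CPM with losartan against 1128 and 993 CPM untreated (log2 -0.42 ± 0.15, edgeR adjusted p = 0.565), without overlap. Pax8 in parietal epithelium was at 541 and 792 CPM with losartan against 855 and 1036 CPM untreated (log2 -0.51 ± 0.21, edgeR adjusted p = 0.436), without overlap. In connecting tubule the log2 changes were -0.10 for Pax2 and -0.07 for Pax8, and in S1 -0.04 and -0.01. In podocytes, where Pax8 was near background, it had 102 and 36.0 CPM with losartan and 45.0 and 18.9 CPM untreated (log2 1.17 ± 0.47, edgeR adjusted p = 0.537), and the groups overlapped. It was called there without losartan library 2 (edgeR adjusted p = 0.0283) or untreated library 1 (0.00095).

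**Figure D4:**
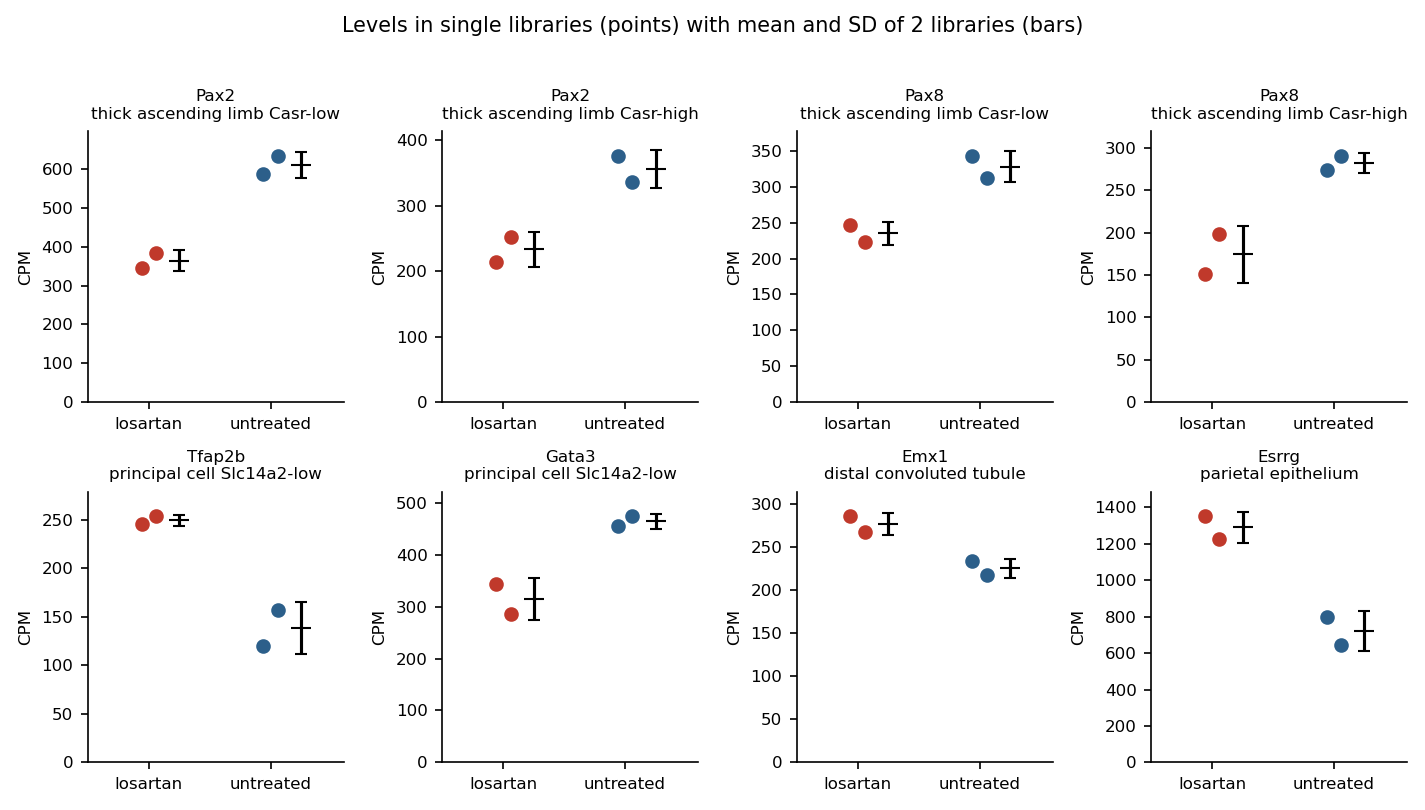
Levels (y axis, CPM, linear from 0) in the 2 losartan libraries (red, left) and the 2 untreated libraries (blue, right) for 8 pairs of gene and class, with mean and SD of 2 libraries as bars. The groups do not overlap in any of the panels, which were chosen for that, and no adjusted p was under 0.05; Tfap2b in principal cell Slc14a2-low is at 245 and 254 CPM with losartan and at 119 and 157 CPM untreated.

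Tfap2b differed most in principal cell Slc14a2-low, the class of the collecting duct that regulates water and sodium. It had 245 and 254 CPM with losartan against 119 and 157 CPM untreated, a log2 change of 0.86 ± 0.19 and an edgeR adjusted p of 0.160. Gata3 in the same nuclei had 343 and 286 CPM with losartan against 454 and 474 CPM untreated, a log2 change of -0.53 ± 0.17 and an edgeR adjusted p of 0.447. Neither pair of groups overlapped, and the 2 genes had opposite signs. Tfap2b was called without the filter on low counts (edgeR adjusted p = 0.0134) and without untreated library 2 (0.00315), and over its alternatives the adjusted p ran up to 0.9998. When nuclei were grouped by their own markers, the log2 change of Tfap2b was 0.16. That grouping pools both principal cell classes, with 577 Slc14a2-low and 379 Slc14a2-high nuclei, and takes in 257 connecting tubule nuclei.

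Tfap2b was higher in connecting tubule than in these principal cells. All 5 connecting tubule markers summed to 1938 and 1861 CPM with losartan against 2567 and 2958 CPM untreated in principal cell Slc14a2-low. The 14 proximal tubule markers summed to 2239 and 2054 CPM with losartan against 1642 and 1254 CPM untreated there. The part of either list in the Tfap2b difference was not tested. In the distal convoluted tubule Tfap2b had 317 and 307 CPM with losartan against 384 and 342 CPM untreated (log2 -0.18 ± 0.099, edgeR adjusted p = 0.642), and in connecting tubule the groups overlapped.

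Emx1 in its leading segment, the distal convoluted tubule, which carries the thiazide-sensitive cotransporter, had 286 and 268 CPM with losartan against 233 and 217 CPM untreated. The groups did not overlap, with a log2 change of 0.34 ± 0.098 and an edgeR adjusted p of 0.245. In connecting tubule it had 194 and 156 CPM with losartan and 159.8 and 149.6 CPM untreated, with overlap (log2 0.18 ± 0.15). Within the distal convoluted tubule the log2 changes of the markers Slc12a3, Trpm6, Abca13 and Pvalb were 0.21, 0.47, 0.72 and -0.12. Of these, only Abca13 was called (edgeR adjusted p = 0.0272). The part of these markers in the Emx1 difference was not tested.

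Hnf4a in the proximal tubule showed small differences. The log2 change was 0.33 ± 0.12 in S2 (edgeR adjusted p = 0.271), 0.16 ± 0.14 in S1 and 0.09 ± 0.16 in S3, with groups apart in S2 and S1 and overlapping in S3. In injured proximal tubule nuclei, too few in losartan library 1 for a test (25 nuclei), both losartan libraries were above both untreated libraries. In the other classes the estimates were larger, at 0.43 to 1.08, and none was called. In parietal epithelium Hnf4a had 94.3 and 101 CPM with losartan against 33.3 and 57.0 CPM untreated. With nuclei grouped by their own markers its log2 change was -0.037, in a group of 264 nuclei of this class, 178 of injured proximal tubule and others. In thick ascending limb Casr-high it had 42.7 and 29.0 CPM with losartan against 26.1 and 8.84 CPM untreated, and was called without the filter on low counts (edgeR adjusted p = 0.0019) and without untreated library 1 (7.53e-08). Without untreated library 1, Hnf4a was also called in thick ascending limb Casr-low, distal convoluted tubule and intercalated cell type B (0.00404 to 0.00985).

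In the 12 nephron classes outside the proximal tubule the mean Hnf4a level was 19.4 to 71.5 CPM, beside 26.1 to 34.4 CPM in endothelium, fibroblasts and macrophages, and the proximal tubule markers moved with it. Over 46 points of these 12 classes, the 14 markers summed to 1130 to 4241 CPM in losartan libraries and 315 to 1642 CPM in untreated libraries, with 12 to 14 of them detected. Hnf4a ran from 17.9 to 101 CPM in the losartan libraries and from 2.71 to 57.0 CPM in the untreated libraries. The Pearson correlation of the log2 values was 0.84 over these points, which share libraries. The part of proximal tubule RNA in the Hnf4a differences was not tested.

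**Figure D5:**
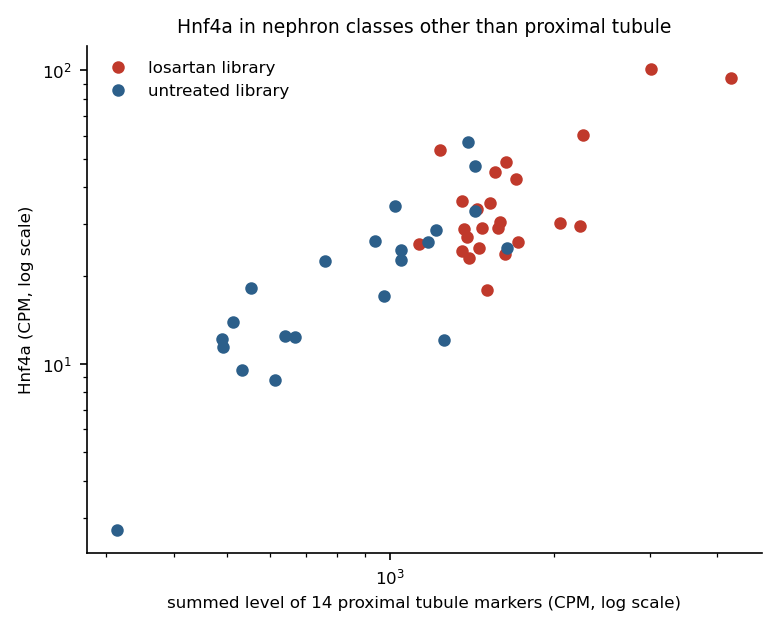
Hnf4a level (y axis, CPM, log scale) against the summed level of 14 proximal tubule markers (x axis, CPM, log scale) in 12 nephron classes other than proximal tubule, 1 point per class and library, losartan in red and untreated in blue. Points with more proximal tubule marker RNA have more Hnf4a, and losartan libraries lie to the right, between 1130 and 4241 CPM of the markers.

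Esrrg had its largest difference in parietal epithelium, with 1352 and 1229 CPM in losartan libraries against 799 and 646 CPM in untreated libraries. The groups did not overlap (log2 0.84 ± 0.17, edgeR adjusted p = 0.0773), and DESeq2 called it at an adjusted p of 0.0495. It was also called without the filter on low counts (edgeR adjusted p = 0.000107) and without untreated library 1 (0.00184), while over the alternatives the adjusted p ran up to 0.787 and the log2 change to -0.46 when nuclei were grouped by their own markers. That own-marker group held 264 nuclei of the parietal class beside 178 of injured proximal tubule, 118 of fibroblasts, 95 of thin limb Slc14a2-high and others. The 14 markers of proximal tubule, where Esrrg is high, summed in the nuclei of the parietal class to 4241 and 3022 CPM with losartan against 1432 and 1389 CPM untreated, with all 14 markers detected. The 4 parietal markers summed to 1792 and 2721 CPM with losartan against 2850 and 3064 CPM untreated, and the part of either list was not tested. In both intercalated cell types and thick ascending limb Casr-low, the 3 classes with the highest Esrrg means, its log2 change was 0.06 to 0.07.

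Tfcp2l1 in intercalated cell type A, its leading class, had 2195 and 2632 CPM with losartan against 3103 and 2849 CPM untreated, without overlap (log2 -0.26 ± 0.13, edgeR adjusted p = 0.998). In S1 it had 481 and 391 CPM with losartan against 372 and 232 CPM untreated, also without overlap (log2 0.57 ± 0.24, edgeR adjusted p = 0.563; 0.018 without the filter on low counts). In intercalated cell type B, principal cell Slc14a2-low and connecting tubule the groups overlapped.

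Summed over all kept nuclei, 0 of 8 members and 0% of 18402 genes were called by edgeR, with 4075 genes and 1 member at an unadjusted p under 0.05, and DESeq2 called 1654 genes. Hnf4a had 385 and 305 CPM with losartan against 238 and 170.3 CPM untreated, without overlap (log2 0.91 ± 0.24, edgeR adjusted p = 0.149; DESeq2 adjusted p = 0.00616; up to 0.562 over the alternatives). Proximal tubule nuclei made up 45.6% and 37.5% of the losartan libraries and 36.2% and 26.5% of the untreated libraries, and in such sums fewer cells of a type and less RNA per cell cannot be told apart. The log2 changes of the other 7 genes in these sums were -0.51 for Gata3, -0.38 for Pax2, -0.25 for Tfap2b, -0.03 for Pax8, 0.24 for Emx1, 0.27 for Tfcp2l1 and 0.46 for Esrrg.

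Among the 38 other transcription factors, 314 tests gave 1 call higher and 0 lower with losartan. The call was Nr1h4, the bile acid receptor, in thick ascending limb Casr-high, which rose to 266 and 246 CPM with losartan, against 174 and 169 CPM untreated (log2 0.61 ± 0.12, edgeR adjusted p = 0.041). The median log2 change of the list there was 0.11, beside 0.00 over all genes. Among 21 genes described as partners or targets of the members, 210 tests gave 4 calls higher and 1 lower. In connecting tubule the phosphate transporter Slc34a1 (log2 0.96), the anion transporter Slc22a6 (1.56) and Pdzk1 (1.23) rose while the calcium-binding Calb1 fell by 1.20 on the log2 scale, to 362 and 487 CPM with losartan against 635 and 1297 CPM untreated, and in parietal epithelium Slc34a1 rose by 1.41. The edgeR adjusted p of these 5 was 0.0184 to 0.0377. Slc34a1, Slc22a6 and Pdzk1 are proximal tubule genes. The summed proximal tubule markers in connecting tubule were 1626 and 1454 CPM with losartan against 976 and 641 CPM untreated. This sum is not independent of the calls, because Slc34a1 and Slc22a6 are among its 14 markers. Slc34a1 alone had 475 and 344 CPM with losartan and 251 and 170 CPM untreated there. The part of proximal tubule RNA in these 4 calls was not tested. Calb1 is also one of the markers of connecting tubule. The other markers there had log2 changes of -1.11 for Slc8a1, -0.42 for Trpv5, -0.005 for S100g and 0.72 for Klk1. Of these other markers only Slc8a1 was called (edgeR adjusted p = 0.00603), and the part of class content in the Calb1 call was not tested.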

How the data were processed

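Raw counts of UMIs per gene and barcode, 1 matrix per library, were deposited by the authors and, per the file headers, come from Cell Ranger 5.0.0. Beside it, mm10 and Bowtie 0.12.2 appear in the submitters' processing notes without a role. Whether introns were counted, and on which strand, is not given in the sources used here. As the count is the sole deposited unit, CPM and log2 values were computed here.

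Barcodes were kept with at least 500 UMIs, 300 genes and at most 10% mitochondrial UMIs, which removed 510. Scrublet (scanpy 1.11.5) removed 3213 doublets, by its automatic threshold in untreated library 1 and elsewhere, where that marked under 0.5%, at 0.8% per 1000 barcodes. After scaling to 10000 UMIs, 3000 variable genes without the 46 listed factors, 30 components and 15 neighbours went into Leiden clustering at resolution 1.5 (igraph 0.11.9). Clusters were named from 23 marker sets, each name resting on at least 3 markers detected in 10% of nuclei, and 4261 nuclei stayed unnamed. Classes without 20 nuclei in a library gave no level there. Median depth of kept nuclei was 3354 to 4239 UMIs, and shares carry counting error only.

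Counts were summed per library and class and tested with edgeR 4.0.16 (R 4.3.3; quasi-likelihood, TMM, filterByExpr, treatment as the term, Benjamini-Hochberg per class), with DESeq2 1.42.0, the filter, a replicate block, left-out libraries, doublets, own-marker grouping and nuclei rich in proximal tubule UMIs as alternatives. The procedure was checked on simulated data. The named genes are the members, the 3 nearest patterns of each, called genes of the 2 lists and class markers; other listed factors were named as examples after their values were seen. The members and lists were chosen with earlier results of these data known.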

Additional observations from a re-analysis of the deposited data

Results flagged for a closer look

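Tfap2b was above both untreated libraries in both losartan libraries of principal cell Slc14a2-low (log2 0.86, losartan over untreated) and below both in the distal convoluted tubule (log2 -0.18). Tfcp2l1 was above both untreated libraries in proximal tubule S1 (log2 0.57) and below both in intercalated cell type A (log2 -0.26). These genes were singled out because the groups were apart in opposite directions in 2 classes. The difference between the classes was not tested, and none of the 4 changes was called by edgeR.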

How the results depend on the processing

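The total of genes called over the classes was 397. It was 837 with DESeq2, 3937 without the filter on low counts, 1160 when nuclei were grouped by their own markers, 636 without clusters mostly of 1 library (an alternative added after the data were seen) and 155 to 3756 with each library left out, lowest without losartan library 1 and highest without untreated library 1. Members called, 0 in all, became 1 with DESeq2, 7 without the filter, 1 with doublets kept, 1 by own markers and 0 to 11 with a library left out, 11 without untreated library 1. In whole-kidney sums 0 genes became 1654 with DESeq2 and 0 to 23 with a library left out. With the replicate block the totals were 1688 genes, 6 members and 1591 whole-kidney genes; the numbers are not shown to pair the libraries, same-numbered libraries correlating at 0.348 in the whole kidney and 0.0147 to 0.173 in classes, and the members were Pax2 in both thick ascending limb classes, Pax8 and Hnf4a in Casr-high, Tfap2b in principal cell Slc14a2-low and Esrrg in parietal epithelium. Own-marker grouping, which pools the paired classes of thin limb, thick ascending limb and principal cell, gave log2 0.14 for Gata3 in S1, -0.46 for Esrrg and -0.037 for Hnf4a in parietal epithelium and -0.025 for Tfap2b in thick ascending limb, each opposite in sign; keeping doublets gave -0.020 for Tfap2b in Casr-low. The own-marker parietal group held 264 nuclei of the parietal class beside 178 of injured proximal tubule, 118 of fibroblasts and others. The own-marker principal cell group took in 257 nuclei of connecting tubule. With libraries left out, log2 changes ranged from -0.22 to 0.34 for Pax2 in thin limb Slc14a2-high and from -0.000831 to 0.12 for Esrrg in intercalated cell type A. Of 247 alternative log2 values of 25 results, 208 kept direction and side of the threshold. The class with the highest level was kept for 7 or 8 genes in every alternative, and the class with most detected nuclei for 5 of 8 with all UMIs in place of thinned ones. The causes were not tested.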

Other observations

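Some members had levels outside the nephron. T and NK cell nuclei had Emx1 at 94.5 and 70.2 CPM in the losartan libraries and 66.6 and 32.3 CPM in the untreated libraries, from 27 and 39 nuclei and from 64 and 148 nuclei. The 4 distal convoluted tubule markers summed to 7503 and 7181 CPM with losartan and 3909 and 2986 CPM untreated in the same T and NK cell nuclei, and their part in the Emx1 level was not tested. Gata3 had 81.0 and 92.7 CPM with losartan and 196 and 161 CPM untreated in mural, mesangial and renin cells, and Hnf4a 154 and 219 CPM with losartan and 88.3 and 54.7 CPM untreated there. The 14 proximal tubule markers summed to 4263 and 4885 CPM with losartan and 2383 and 2173 CPM untreated in these nuclei, and their part in the Hnf4a level was not tested.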
